A study of Mus musculus with 6 samples.

Results

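The genes described here are the Krüppel-like factors (KLF), the specificity proteins (SP), the early growth response factors (EGR) and Wt1 of the mouse, chosen by name as Klf1 to Klf17, Sp1 to Sp9, Egr1 to Egr4 and Wt1. They are 31 of the 21851 protein-coding genes of GENCODE release M21 on the 19 autosomes, X and Y, namely 17 KLF, 9 SP and 4 EGR genes and Wt1. ATAC-seq, in which a transposase cuts accessible DNA, had been used to map open chromatin in beige, white and brown adipocytes, with 2 libraries per condition and 1 list of peaks per library. All cells were the stromal vascular fraction of adipose tissue of wild-type male C57BL/6J mice aged 3 to 4 weeks, differentiated in culture for 7 days. Beige and white adipocytes came from inguinal fat and brown adipocytes from brown adipose tissue. The beige medium held 5 μg/ml insulin, 5 μM dexamethasone, 0.5 mM IBMX, 1 nM T3 and 1 μM rosiglitazone for 48 h, and insulin, T3 and rosiglitazone afterwards. Brown adipocytes received the beige medium. The white medium held 5 μg/ml insulin, 1 μM dexamethasone and 0.5 mM IBMX for 48 h and insulin alone afterwards, without T3 and rosiglitazone. These insulin concentrations are those of the labels. The methods of the study give lower ones for beige and white cells, which also differ between those media. Beige and white cells therefore differed in medium, brown and beige cells in tissue of origin, and brown and white cells in both. Medium and tissue thus cannot be told apart in the last comparison. The study describes no brown library. Any difference in preparation or sequencing between the brown and the other libraries cannot be told apart from tissue.

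All of these proteins bind DNA through a cluster of C2H2 zinc fingers, the KLF and SP proteins at GC-rich and CACCC boxes and the EGR proteins and Wt1 at a related GC-rich sequence. In fat, Klf4 and Egr2 act early in adipogenesis upstream of C/EBPβ, Klf5 is needed for early differentiation, Klf15 acts late and supports glucose uptake and amino acid catabolism, and Klf2, Klf3 and Klf7 restrain differentiation. The EGR genes are classical immediate early genes switched on within minutes by serum response factor, and Klf9 and Klf15 are direct targets of the glucocorticoid receptor in several tissues.

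A promoter peak was a deposited peak with its summit within 1 kb of a start site of the gene. The strength of a peak was read as its percentile, the percentage of intervals in the same library with a fold enrichment no larger than that of the summit. A percentile compares a peak only with the other peaks of its library. The deposited −log10 q of the summit was given to show how far a peak lay above the authors' threshold, a q value of 0.05. The lists held 109143 to 127490 intervals and no reads, and the median −log10 q was 9.18 and 9.36 in white and 9.39 to 12.5 in the other libraries. The sequencing depth behind a peak is therefore not known from the lists. The study reports more mapped reads and a higher mapped share for both white libraries than for both beige ones. It reports neither for brown. Whether depth bears on the comparisons was not tested. With 2 libraries per condition, the smallest two-sided p of an exact permutation test is 0.333, and no test between conditions was made. A gene was called separated where both libraries of a condition lay above both of the other and the gap was larger than the difference between replicates in either condition. Between 66.0% and 67.0% of protein-coding genes had a promoter peak in a library. Of the lists of marker genes, 10 of 10 adipocyte promoters were open in all 6 libraries, as were 5 of 7 thermogenic, 4 of 8 progenitor, 2 of 8 macrophage, 4 of 7 endothelial and 3 of 7 mesothelial promoters, the last with Wt1 among them. The promoter of Ucp1, the brown fat uncoupler, was open in brown replicates 1 and 2 and in none of the 4 other libraries. Of the macrophage list, Adgre1 and Cd68 were open in all 6 libraries, and Csf1r, Spi1, Mrc1, Itgam, Cd163 and Fcgr1 in none. Of the endothelial list, Pecam1, Kdr, Tek and Erg were open in all 6, and Cdh5 and Emcn in none. Of the mesothelial list, Krt19, Bnc1 and Wt1 were open in all 6, and Msln, Upk3b, Lrrn4 and Krt7 in none. In bulk cultures, fewer cells with an open site and a site that is less open in each cell cannot be told apart.

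The promoters of the family were open in most cases. A promoter peak was found in all 6 libraries for 25 of the 31 genes, against 62.4% of all protein-coding genes. Klf17, a germ cell factor, was the 1 gene without a promoter peak in any library, as were 28.5% of all genes. The other 5 genes, Klf1, Sp6, Sp7, Sp9 and Egr4, had a peak in 1 to 5 libraries, against 9.1% of all genes. Per library, 26 to 29 of the 31 genes had a promoter peak. The ratio of observed to expected CpG dinucleotides in the 500 bp to each side of the start site, which is high in CpG islands, was at least 0.6 in 25 of the 31 genes and in 49.2% of all genes. Among the genes with a promoter peak in all 6 libraries, that held for 22 of 25 (88.0%) of the family and for 75.0% overall.

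In the median, these promoters ranked below those of all genes. The median promoter percentile of the family was 71.8 and 63.0 in beige, 74.7 and 61.5 in white, and 74.4 and 79.4 in brown. In the same libraries, the median over all genes with a promoter peak was 87.9 and 86.3, 87.3 and 84.3, and 88.3 and 89.7. The family thus lay below the median of all genes in each of the 6 libraries, and its lowest median was that of white replicate 2.

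**Figure D1:**
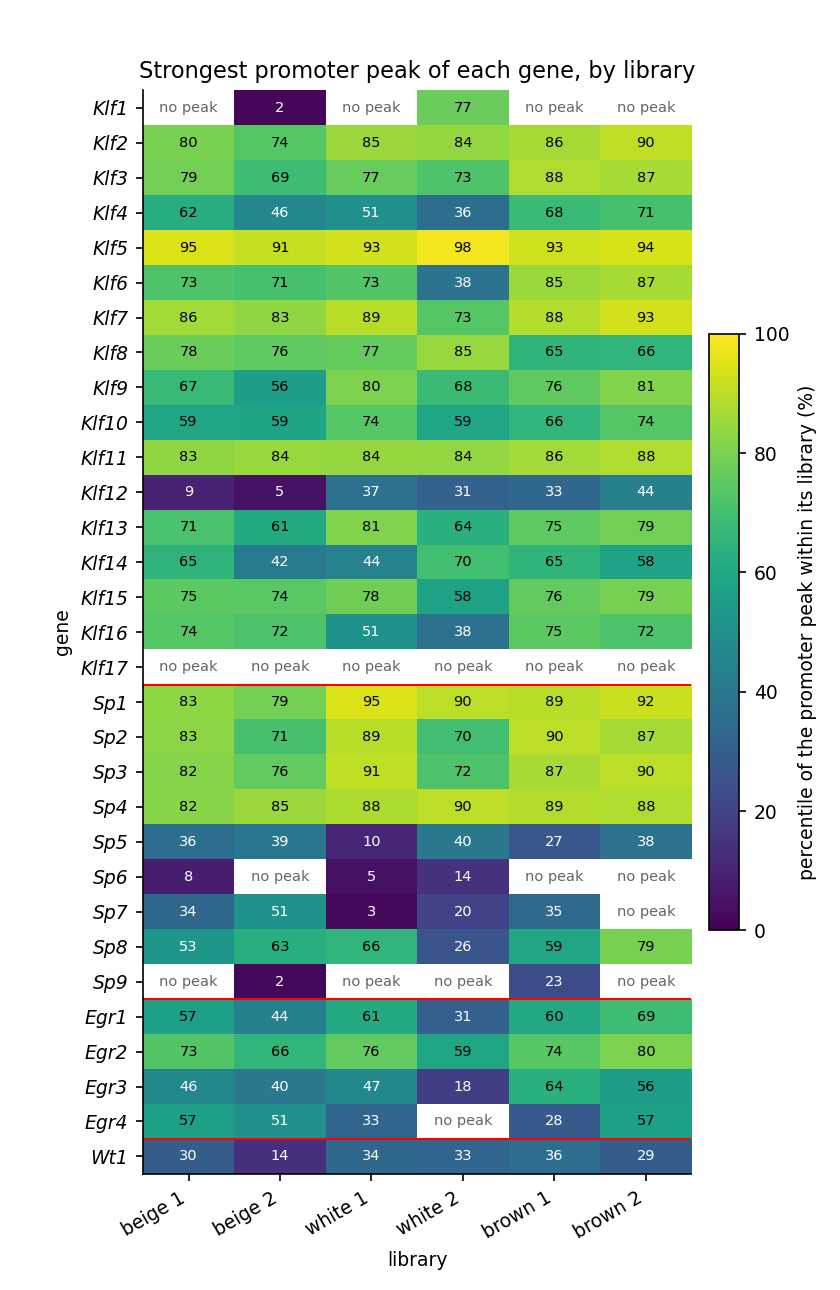
Percentile of the strongest promoter peak of each of the 31 genes (rows, KLF, SP, EGR and Wt1 separated by red lines) within each of the 6 libraries (columns). Colour and printed number give the percentile in percent, and white cells have no promoter peak. Klf5 lies between 91.4 and 98.0 in every library, Klf12 is at 9.05 and 4.77 in beige, and Klf17 has no peak.

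Klf5, an early adipogenic factor, had the highest mean percentile of the family (94.0), with 94.8 and 91.4 in beige, 93.1 and 98.0 in white, and 92.7 and 94.0 in brown. Its summits lay 108 to 122 bp upstream of a start site in the 6 libraries. Sp1 and Sp3, the ubiquitous activators of GC-box promoters, had mean percentiles of 88.0 and 82.8, and Sp4, best known from neurons, had 87.0. Klf7 (85.7), Klf11, a factor induced by TGF-β (85.0), Klf2 (83.2) and Sp2 (81.5) followed. Wt1 and Sp5 ranked low among the genes open in all 6 libraries. Wt1, known from kidney, mesothelium and visceral fat progenitors, had 29.5 and 13.6 in beige, 33.6 and 32.6 in white, and 35.9 and 29.3 in brown, and Sp5, a Wnt target of the early embryo, had a mean of 31.8. The −log10 q of the 6 Wt1 peaks was 6.73 to 10.3.

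The lowest mean belonged to Sp6, an epithelial factor of teeth and skin, whose promoter peak was found at percentiles of 7.61 in beige replicate 1 and 4.58 and 14.3 in white, and in no brown library. Sp7, the osteoblast factor osterix, had a promoter peak at 33.8 and 50.8 in beige, 2.71 and 20.0 in white, and 34.7 in brown replicate 1, and none in brown replicate 2. Sp9, a factor of limb buds and interneurons, had a peak in beige replicate 2 (2.29) and brown replicate 1 (22.8) alone. In these 3 genes presence differed between the replicates of at least 1 condition. Klf1, the erythroid factor of the globin genes, had a promoter peak in beige replicate 2 at a percentile of 1.55 and in white replicate 2 at 77.0. The summit in white replicate 2 lay 997 bp downstream of the start site, at the edge of the distance allowed. Just beyond that edge, a region with its strongest summit 1.265 kb downstream was open in all 6 libraries. Egr4 had a promoter peak at 56.9 and 50.7 in beige, 32.7 in white replicate 1, and 28.2 and 57.0 in brown, and none in white replicate 2. Its −log10 q was 21.5 and 19.8 in beige and 9.40 in white replicate 1.

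Klf4, which the study considered as a candidate, had its strongest promoter summit at the same place in all 6 libraries, 538 to 544 bp upstream of the start site. The window of 201 bp around it is shown because it carries the Klf4 promoter result. It is printed 5′ to 3′ on the strand of the gene (mm10, minus strand), with a GC box (GGGCGG) and an AP-1 site (TGANTCA) in capitals.
Klf4 promoter, chr4:55532909-55533109: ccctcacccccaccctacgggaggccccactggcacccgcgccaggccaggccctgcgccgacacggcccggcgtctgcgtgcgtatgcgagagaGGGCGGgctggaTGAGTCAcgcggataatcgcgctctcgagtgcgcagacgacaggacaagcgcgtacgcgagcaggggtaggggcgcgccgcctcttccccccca
The Klf4 percentile was 62.2 and 46.2 in beige, 50.6 and 36.3 in white, and 67.9 and 70.8 in brown. Both brown libraries lay above the 4 others, and beige and white overlapped. The mean in brown was 25.9 above that in white, with replicate differences of 2.89 in brown and 14.4 in white, and the gene was separated in this comparison. This call held under each alternative run for it. The −log10 q was 73.6 and 55.2 in beige, 24.3 and 17.7 in white, and 76.4 and 57.8 in brown.

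Klf16, a repressor first described at dopamine receptor genes, was the 1 gene whose promoter ranked higher in beige than in white beyond the difference between replicates, against 10.3% of genes overall. The percentile was 73.6 and 72.3 in beige, 51.2 and 37.9 in white, and 74.7 and 71.9 in brown. Both white libraries lay below the 4 others, and beige and brown overlapped. The mean in beige was 28.4 above that in white and the mean in brown was 28.8 above it. The strongest summit lay 127 to 186 bp upstream of the start site in beige and brown, 584 bp upstream in white replicate 1 and 13 bp downstream in white replicate 2. With promoters of 3 kb in place of 1 kb the differences were 14.0 and 14.4 and the gene was separated in neither comparison. The window of beige replicate 2 is shown on the strand of the gene (mm10, minus strand), because the strongest white summits lay elsewhere. The capitals mark GC boxes on either strand and an EGR sequence (GCGGGGGCG) that overlaps a GC box.
Klf16 promoter, chr10:80577348-80577548: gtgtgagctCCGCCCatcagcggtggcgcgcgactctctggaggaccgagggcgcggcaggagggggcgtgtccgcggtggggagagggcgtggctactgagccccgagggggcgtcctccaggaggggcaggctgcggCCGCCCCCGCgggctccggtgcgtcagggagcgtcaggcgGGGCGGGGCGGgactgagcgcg

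Klf12, Sp1 and Sp4 went the other way and ranked lower in beige than in white, 3 of 25 genes against 7.16% of all genes. Klf12, a repressor that recruits CtBP, had percentiles of 9.05 and 4.77 in beige, 37.3 and 31.3 in white, and 33.4 and 43.6 in brown. Both beige libraries lay below the 4 others. The −log10 q was 6.25 and 5.65 in beige and 10.2 to 12.3 elsewhere. The strongest summit lay 862 bp upstream in beige replicate 2 and 837 bp upstream in white replicate 1. In the other libraries it lay 57 to 159 bp downstream of a start site. The Klf12 difference of −27.4 between beige and white became −7.94 with promoters of 3 kb and was then no longer separated. Sp1 had 83.2 and 79.1 in beige, 94.6 and 89.9 in white, and 89.3 and 91.9 in brown, and Sp4 had 82.1 and 85.0, 87.9 and 90.1, and 88.6 and 88.1. In both genes the beige libraries were the lowest. Ranked by −log10 q, the difference between beige and white was −0.614 for Sp1 and 0.521 for Sp4, so the first call was lost and the second changed its sign. The Sp4 call was also lost at a q value of 0.00001 (−5.70) and among promoter peaks (−9.90). The median of the beige minus white differences was −2.47 over the 25 genes and 0.682 over all genes.

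Between brown and beige, 7 of the 25 promoters were separated, and 6 of them ranked higher in brown. Klf2, Klf6, Klf12, Sp1, Sp4 and Egr3 were separated with brown above beige, 6 of 25 genes against 12.3% of all genes, and Klf8 with brown below beige, 1 of 25 against 6.01%. The median difference was 11.0 over the 25 genes and 0.860 over all genes. In the median, all genes ranked nearer the top of the scale, which leaves less room for a rise. No genes of matched rank were compared, here or in the other comparisons. Klf2, which keeps preadipocytes undifferentiated, had 79.8 and 73.7 in beige, 84.8 and 84.0 in white, and 86.3 and 90.4 in brown. Klf6, an early response factor that represses the preadipocyte gene Dlk1, had 72.5 and 70.9 in beige, 73.3 and 38.0 in white, and 84.9 and 86.7 in brown. For Klf2 and Klf6 both brown libraries were the highest of the 6. White replicate 2 alone was low for Klf6. Ranked by −log10 q, the brown minus beige difference of Klf6 was 1.3 and no longer separated, and with lists of equal length the same was true of Klf2, with a difference of 14.4. The Klf12 difference between brown and beige fell from 31.6 to 2.23 with promoters of 3 kb and was no longer separated. For Sp4 it was 4.84, and the call was lost at a q value of 0.00001 (5.23), ranked by −log10 q (0.205) and among promoter peaks (2.06). Klf8, a repressor that recruits CtBP and is encoded on the X chromosome, went the opposite way, with 77.6 and 75.7 in beige, 76.5 and 84.6 in white, and 65.3 and 65.7 in brown. Its −log10 q was 10.5 to 22.9, and its summits lay 462 to 768 bp downstream of a start site.

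Brown and white were separated for Klf3, Klf4 and Klf16, with brown above white in 3 of 25 genes against 10.5% of all genes, and for Klf8, with brown below white in 1 of 25 against 4.99%. Klf3, a CtBP-recruiting repressor of adipogenesis, had 78.6 and 68.8 in beige, 76.9 and 72.5 in white, and 88.3 and 86.7 in brown. Both brown libraries lay above the 4 others, although the call was lost when percentiles were taken among promoter peaks alone, with a difference of 7.60. For Klf8 the call was lost in the same way (−19.6) and with lists of equal length (−13.9). The median brown minus white difference was 6.91 over the 25 genes and 1.68 over all genes. The 3 comparisons share libraries, so their counts are not independent of each other.

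**Figure D2:**
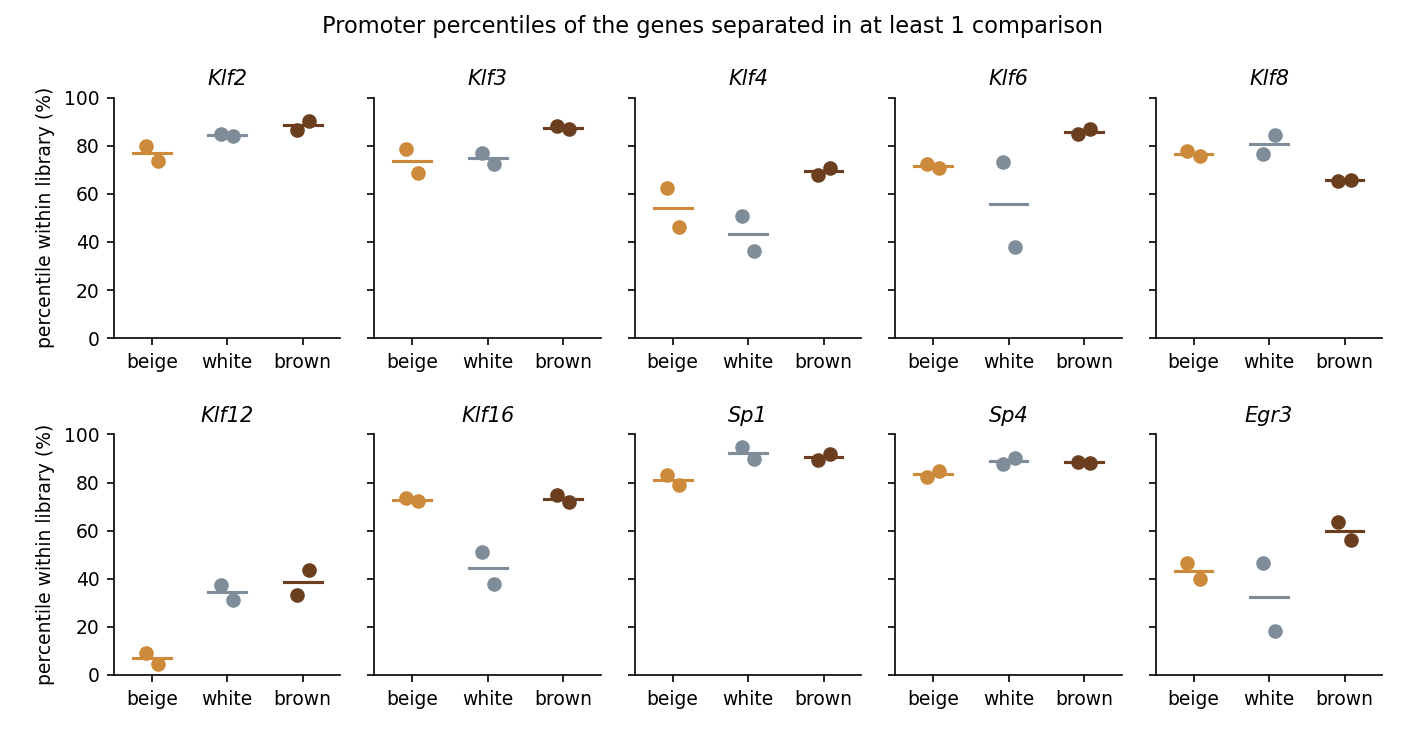
Promoter percentile (y axis, percent of intervals of the same library) in the 2 beige, 2 white and 2 brown libraries (points) with their mean (line), for the 10 genes separated in at least 1 comparison. Klf16 is lower in white (51.2 and 37.9), Klf12 is lower in beige (9.05 and 4.77) and Klf8 is lower in brown (65.3 and 65.7) than in the other conditions.

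Glucocorticoid-responsive members were open in all conditions without separation at their promoters. Klf9 had promoter percentiles of 67.5 and 55.6 in beige, 80.3 and 68.1 in white, and 75.7 and 81.2 in brown. Klf15 had 74.7 and 74.4, 78.4 and 58.1, and 76.1 and 79.3. The strongest Klf15 summit lay 968 to 993 bp downstream of a start site in all 6 libraries, close to the edge of the distance allowed. White replicate 2 stood below the 5 other libraries at Klf15. The other members with a promoter peak in all 6 libraries and no separation were Klf5, Klf7, Klf10, Klf11, Klf13, Klf14, Sp2, Sp3, Sp5, Sp8, Egr1, Egr2 and Wt1.

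The EGR promoters ranked in the middle of their libraries. Egr2 had 73.2 and 65.8 in beige, 76.0 and 59.3 in white, and 74.1 and 80.3 in brown, and Egr1 had 56.7 and 43.8, 61.2 and 30.9, and 60.5 and 69.1. Neither was separated in any comparison. Egr3 had 46.5 and 40.1 in beige, 46.5 and 18.4 in white, and 63.5 and 56.1 in brown. Both brown libraries lay above the 4 others, and only the difference from beige, 16.5 in the mean, was larger than the differences between replicates. In white replicate 2 the strongest Egr3 summit lay 994 bp upstream of a start site and in the other libraries 325 to 338 bp upstream. The Egr3 call was lost at a q value of 0.00001 (17.4), with promoters of 3 kb (5.76), ranked by −log10 q (5.11) and among promoter peaks (5.23).

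The Egr2 and Egr3 summits were the only 2 among the 30 promoter windows of the family (201 bp each, around the strongest summit of the gene) with a CArG box, the binding sequence of serum response factor. This was 6.67% of the windows, against 0.589% of 15625 promoter windows overall. The Egr2 window is shown on the plus strand of mm10, which is the strand of the gene, for its CArG box. Capitals mark the CArG box and a CCAAT box read on the opposite strand. The window was ended at the first exon base.
Egr2 promoter, chr10:67537684-67537868: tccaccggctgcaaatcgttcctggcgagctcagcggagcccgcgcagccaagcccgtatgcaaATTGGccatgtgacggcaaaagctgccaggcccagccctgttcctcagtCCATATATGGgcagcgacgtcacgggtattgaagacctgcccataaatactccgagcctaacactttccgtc

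Among the other sequences searched in the 30 promoter windows, on both strands, the GC box occurred in 18 (60.0%, against 57.6% overall) and the CCAAT box in 14 (46.7%, against 29.5%). An EGR sequence (GCGTGGGCG or GCGGGGGCG) was found at Klf16 and Egr1 (6.67%, against 5.13%), AP-1 at Klf4 and Klf9 (6.67%, against 5.25%), and an ETS sequence (CCGGAAGT) at Sp3 (3.33%, against 6.79%). No promoter window held a CACCC box (CCACACCC), a cAMP response element (TGACGTCA), C/EBP (TTGCNNAA), a glucocorticoid element (GNACA and TGTNC with 3 bases between), direct repeats of AGGTCA with 1 base (DR1) or 4 bases between (DR4), or the CTCF consensus, which were found in 2.54%, 2.81%, 5.04%, 0.166%, 0.0064%, 0% and 1.18% of all promoter windows. The absence of these letters says nothing beyond the windows searched.

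Beyond the promoters, 477 further regions lay within 50 kb of the genes, of 150421 such regions around all protein-coding genes and 194610 merged regions in all. Of the 477, 237 were intergenic, 173 lay in introns and 67 in exons, and 54 were at the promoter of another protein-coding gene. Sp1 and Sp7, which are neighbours, shared 10 of the regions, and Sp2 and Sp6 shared 14. Per gene the number ran from 3 for Klf8 to 30 for Sp2, with a median of 13.3 regions per 100 kb of gene and flanks against 10.6 over all genes. Among genes with a promoter peak in all 6 libraries, this median was 13.3 in the family and 11.9 over all genes. A peak in all 6 libraries was found in 176 of the 477 (36.9%, against 31.3% overall), and 147 (30.8%, against 35.7%) were found in 1 library alone. Klf5, whose promoter ranked highest, had 7 further regions and none of them in all 6 libraries, and the same was true of the 9 regions of Klf14, a maternally expressed regulator of fat metabolism. Klf4 had 8 of 20 and Klf15 had 8 of 19 in all 6.

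**Figure D3:**
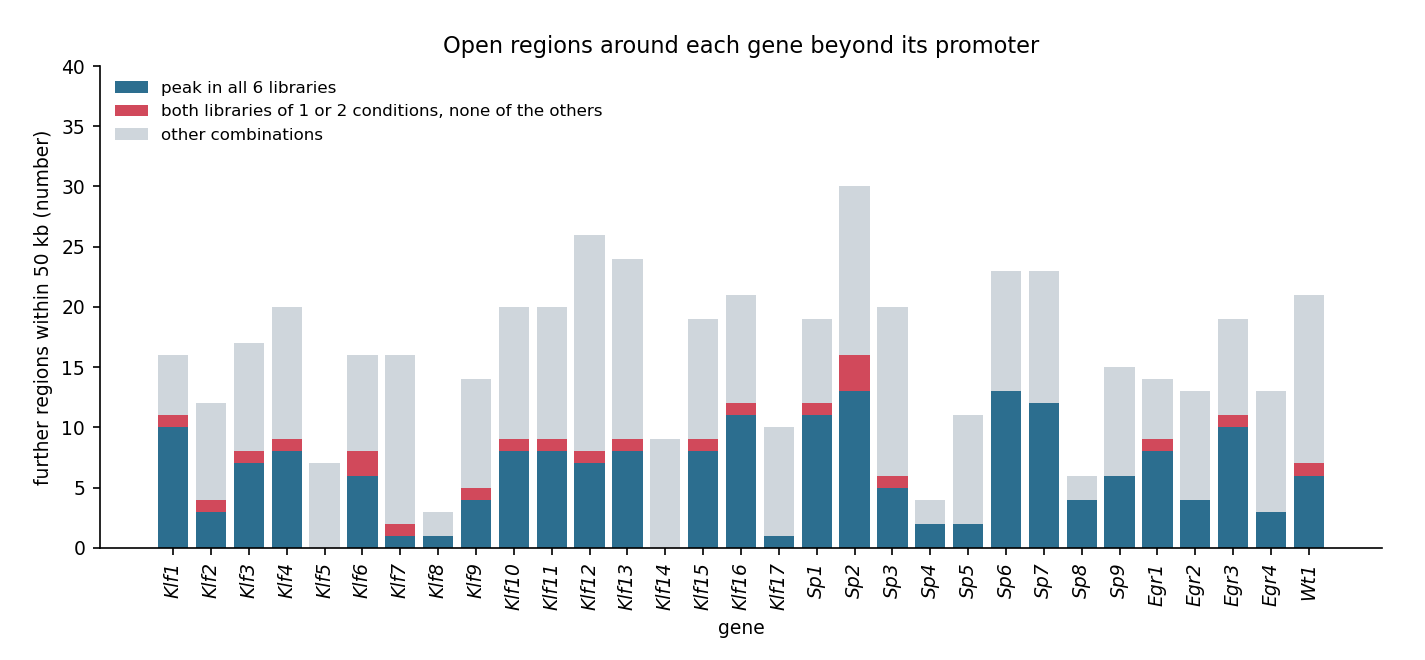
Number of further open regions within 50 kb of each gene (y axis) split by the libraries that hold a peak. Regions near a pair of genes are counted at both. Sp2 has 30 regions, 3 of them in both libraries of 1 or 2 conditions and none of the others, whereas Klf5 and Klf14 have none in all 6 libraries.

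The strongest further region of Klf4 lay 17.6 kb downstream of its start site, between genes, with percentiles of 98.3 and 99.3 in beige, 99.7 and 99.5 in white, and 98.6 and 98.5 in brown. It ranked far above the Klf4 promoter in all 6 libraries. It is shown (mm10, plus strand) as the most open site around Klf4, with a GC box and a CACCC box, the sequences to which KLF proteins bind, in capitals.
Klf4 region 17.6 kb downstream, chr4:55514768-55514968: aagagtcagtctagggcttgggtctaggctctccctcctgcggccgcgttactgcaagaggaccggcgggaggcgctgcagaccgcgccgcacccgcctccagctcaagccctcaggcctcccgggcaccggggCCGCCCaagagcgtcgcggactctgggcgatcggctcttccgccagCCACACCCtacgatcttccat
Near Sp8, whose promoter had a mean percentile of 57.7, a region 8.96 kb downstream had a mean of 99.6. Klf6 likewise had a region 23.9 kb upstream with a mean of 98.5 that held an AP-1 sequence.

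Klf9 and Klf15 had open regions with a glucocorticoid element within 100 bp of the summit. Both media held dexamethasone at the start, and a link between it and the element was not tested. This element was found in 6 of the 477 regions (1.26%, against 0.621% of all regions), 2 of them near Klf15 and the others near Klf9, Klf13, Klf17 and Wt1. With 50 bp to each side of the summit the share was 0.839%, against 0.322%, and with 250 bp it was 1.47%, against 1.23%. The Klf9 region lay 6.09 kb upstream of the start site, in an intron of the transcript 2410080I02Rik, and was open in all 6 libraries. Its percentile was 52.6 and 51.0 in beige, 62.5 and 67.9 in white, and 57.5 and 59.8 in brown. It was separated, with beige below white and brown above beige. The −log10 q was 91.0 and 111 in beige, 47.2 and 47.9 in white, and 104 and 76.3 in brown, which does not follow the order of the percentiles. The nearer of the Klf15 regions lay in an intron of Klf15, 4.93 kb downstream of a start site, with a −log10 q of 2.97 and 9.24 in beige, 4.70 in white replicate 2, 21.2 and 3.07 in brown, and no peak in white replicate 1. Both windows are shown on the plus strand of mm10, the strand of the genes, for these elements. Capitals mark the glucocorticoid element and, at Klf9, an AP-1 site.
Klf9 region 6.09 kb upstream, chr19:23135035-23135235: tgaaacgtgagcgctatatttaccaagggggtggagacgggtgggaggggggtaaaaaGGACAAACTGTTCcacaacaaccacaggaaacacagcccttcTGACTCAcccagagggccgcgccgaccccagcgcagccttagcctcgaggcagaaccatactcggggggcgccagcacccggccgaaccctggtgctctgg
Klf15 intron region, chr6:90471231-90471431: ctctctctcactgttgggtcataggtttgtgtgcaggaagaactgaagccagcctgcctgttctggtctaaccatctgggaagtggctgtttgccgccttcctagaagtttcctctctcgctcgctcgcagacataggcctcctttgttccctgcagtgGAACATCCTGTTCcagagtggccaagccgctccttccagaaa
A direct repeat of AGGTCA with 4 bases between, the sequence bound by thyroid hormone receptors, was found in 1 of the 477 regions (0.210%, against 0.0133%). It lay 44.9 kb downstream of the start site of Klf10, a TGF-β-induced repressor, in an intron of Gm49313, and is shown (mm10, plus strand) with the repeat, which is read on the opposite strand, in capitals.
Klf10 region 44.9 kb downstream, chr15:38254097-38254297: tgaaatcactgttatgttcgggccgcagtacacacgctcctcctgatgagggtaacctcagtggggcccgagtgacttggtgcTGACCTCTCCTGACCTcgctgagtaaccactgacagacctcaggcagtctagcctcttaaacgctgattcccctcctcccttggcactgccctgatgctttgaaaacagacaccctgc
This region was open in all 6 libraries, at 93.1 and 95.2 in beige, 88.0 and 92.0 in white, and 94.5 and 92.2 in brown. A link between the T3 of the beige and brown media and this repeat was not tested. No region held DR1, against 0.0558% of all regions. The shares of the GC box (17.6%, against 11.1%), the CACCC box (3.98%, against 2.87%), the CCAAT box (19.1%, against 24.1%), AP-1 (19.7%, against 20.6%), C/EBP (9.85%, against 12.2%), CTCF (2.94%, against 3.36%), ETS (1.89%, against 0.907%), CArG (1.26%, against 0.954%), EGR (0.629%, against 0.670%) and the cAMP response element (0.629%, against 0.683%) complete the search.

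Few regions followed the conditions. A peak in both libraries of 1 or 2 conditions and in none of the others was found in 22 of the 477 regions, of which 7 were open in beige alone (1.47%, against 2.08% of all regions), 4 in white alone (0.839%, against 1.2%), 3 in brown alone (0.629%, against 0.83%), 6 in beige and brown (1.26%, against 1.32%), 1 in beige and white (0.210%, against 1.19%) and 1 in white and brown (0.210%, against 0.228%). No class exceeded its share over all regions. Absence from a list means only that no peak passed the authors' threshold in that library.

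The region with the highest −log10 q among them lay 25.7 kb downstream of the start of Klf15, in an intron of Aldh1l1 and Gm45901. It was open in beige and brown, the cells that received T3, rosiglitazone and more dexamethasone than white cells. A link between any of these compounds and the pattern was not tested. The −log10 q was 29.6 and 32.3 in beige and 14.6 and 19.8 in brown, at percentiles of 74.8 and 73.2, and 50.9 and 68.3. No white peak lay within 3.46 kb of its summit. The region 7.91 kb upstream of Klf2 had the same pattern, with a −log10 q of 9.69 and 17.3 in beige and 15 and 12.9 in brown, and the nearest white summit was 7.28 kb away. Both are shown on the plus strand of mm10 as the strongest regions shared by beige and brown. The capitals mark the AP-1 sites of the Klf2 region, and none of the sequences searched was found in the Klf15 window.
Klf15 region 25.7 kb downstream, chr6:90492040-90492240: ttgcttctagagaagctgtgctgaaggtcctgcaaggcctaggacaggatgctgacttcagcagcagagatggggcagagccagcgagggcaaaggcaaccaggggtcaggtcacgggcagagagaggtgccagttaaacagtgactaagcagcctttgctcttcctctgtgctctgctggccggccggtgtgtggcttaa
Klf2 region 7.91 kb upstream, chr8:72311022-72311222: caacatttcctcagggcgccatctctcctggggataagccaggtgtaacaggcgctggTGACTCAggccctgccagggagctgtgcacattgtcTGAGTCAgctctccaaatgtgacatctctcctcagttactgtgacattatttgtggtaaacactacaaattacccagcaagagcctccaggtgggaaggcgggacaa
The 4 other regions open in beige and brown were weaker. They lay near Klf6 (2.93 kb downstream, −log10 q of 4.49 to 9.61), Klf13 (48.1 kb upstream, 3.51 to 6.35), Sp2 (62.1 kb downstream, 3.65 to 10.1) and Wt1 (13.4 kb upstream in Wt1os, the antisense transcript, 5.52 to 7.34). Of these, the Klf6 region had a white summit in both libraries at 685 and 707 bp, in a neighbouring interval. At Wt1, white replicate 2 had a separate summit 873 bp away, at a −log10 q of 9.21.

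Of the 7 regions open in beige alone, those with the highest −log10 q lay 33.9 kb upstream of Klf16, in an intron of Scamp4, and in an intron of Sp1, 15.3 kb downstream of its start. The −log10 q was 6.23 and 25.7 at Klf16 and 22.1 and 13.6 at Sp1. At Klf16 the replicates differed widely, with percentiles of 33.0 and 73.9, and white replicate 2 had a separate summit 581 bp away at a −log10 q of 2.51. At Sp1 the percentiles were 77.3 and 63.1, and the nearest summit of the other libraries was 2.42 kb away. The window of the Klf16 region (mm10, plus strand) is shown as an example found in beige alone, with the CTCF consensus in capitals.
Klf16 region 33.9 kb upstream, chr10:80611139-80611339: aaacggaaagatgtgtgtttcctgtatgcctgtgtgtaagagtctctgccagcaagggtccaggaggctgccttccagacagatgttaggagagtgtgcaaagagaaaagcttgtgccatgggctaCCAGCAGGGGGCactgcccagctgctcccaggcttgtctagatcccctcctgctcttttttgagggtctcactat
The other regions of this class lay near Sp2, Klf11, Klf12, Egr1 and Egr3. Their −log10 q was 10.6 and 5.46 at Sp2, 1.5 and 7.99 at Klf11, 5.22 and 6.41 at Klf12, 3.45 and 3.54 at Egr1, and 3.40 and 5.68 at Egr3. At Egr1 both white libraries and brown replicate 1 had a separate summit 355 to 373 bp away, at a −log10 q of 5.74 to 8.99, above that of the beige peaks. Brown replicate 2 had a summit 428 bp from the Sp2 region, and the nearest white and brown summits at Klf11 were 914 to 1200 bp away.

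Klf4 had the 1 region shared by beige and white alone, 54.3 kb downstream of its start, with a −log10 q of 10.1 and 11.6 in beige and 4.81 and 1.81 in white. White replicate 2 lay just above the threshold. The nearest brown summits were 2.31 and 2.32 kb away. It is shown (mm10, plus strand) as the reverse of the Klf4 promoter, which ranked highest in brown, and it held none of the sequences searched.
Klf4 region 54.3 kb downstream, chr4:55478017-55478217: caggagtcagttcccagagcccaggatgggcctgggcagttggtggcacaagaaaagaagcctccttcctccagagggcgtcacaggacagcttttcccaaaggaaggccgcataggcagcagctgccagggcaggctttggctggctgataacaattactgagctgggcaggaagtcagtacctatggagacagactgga
Klf3 had the 1 region open in white and brown, in an exon of Klf3 5.10 kb downstream of a start site, at a −log10 q of 14.1 and 6.94 in white and 19.7 and 7.35 in brown.

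In brown alone, the region with the highest −log10 q lay 100.4 kb downstream of the start site of Klf7, beyond the 3′ end of this long gene, with a −log10 q of 10.6 and 5.00. White replicate 1 had a separate summit 315 bp away. The others lay near Klf6 (17 kb upstream, 3.31 and 7.72) and Sp3 (72.2 kb downstream, 3.84 and 2.46), each within 1 kb of a summit in every other library. In white alone, regions were found 8.23 kb downstream of Klf1 in an intron of Dnase2a (8.38 and 10.3), 16.3 kb downstream of Klf10 (8.40 and 3.01), in an intron of Klf9, 10.7 kb downstream of its start (4.65 and 5.37), and at the promoter of Sp6 (3.96 and 5.78), which is 35.1 kb upstream of Sp2. Separate summits lay close to these regions too. All beige and brown libraries had a summit 890 to 943 bp from the Klf9 region at a −log10 q of 19.3 to 39.1. Both beige libraries and brown replicate 1 had a summit 380 to 433 bp from the Klf10 region. At Klf1 the nearest beige and brown summits were 1318 to 1329 bp away, and at Sp6 the nearest was 741 bp away, in beige replicate 1. The windows of the Klf7 and Klf9 regions are shown (mm10, plus strand) as examples found in brown and in white alone. Capitals mark a GC box and a CCAAT box at Klf7 and a C/EBP sequence at Klf9.
Klf7 region 100.4 kb downstream, chr1:64021001-64021201: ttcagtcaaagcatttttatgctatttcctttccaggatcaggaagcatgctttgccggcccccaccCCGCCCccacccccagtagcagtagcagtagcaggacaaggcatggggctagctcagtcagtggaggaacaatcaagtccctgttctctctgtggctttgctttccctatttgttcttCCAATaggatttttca
Klf9 intron region, chr19:23151857-23152057: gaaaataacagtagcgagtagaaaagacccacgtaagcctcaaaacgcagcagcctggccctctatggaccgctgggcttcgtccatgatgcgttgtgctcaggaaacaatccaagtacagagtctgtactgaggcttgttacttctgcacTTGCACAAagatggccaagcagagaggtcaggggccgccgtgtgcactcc

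**Figure D4:**
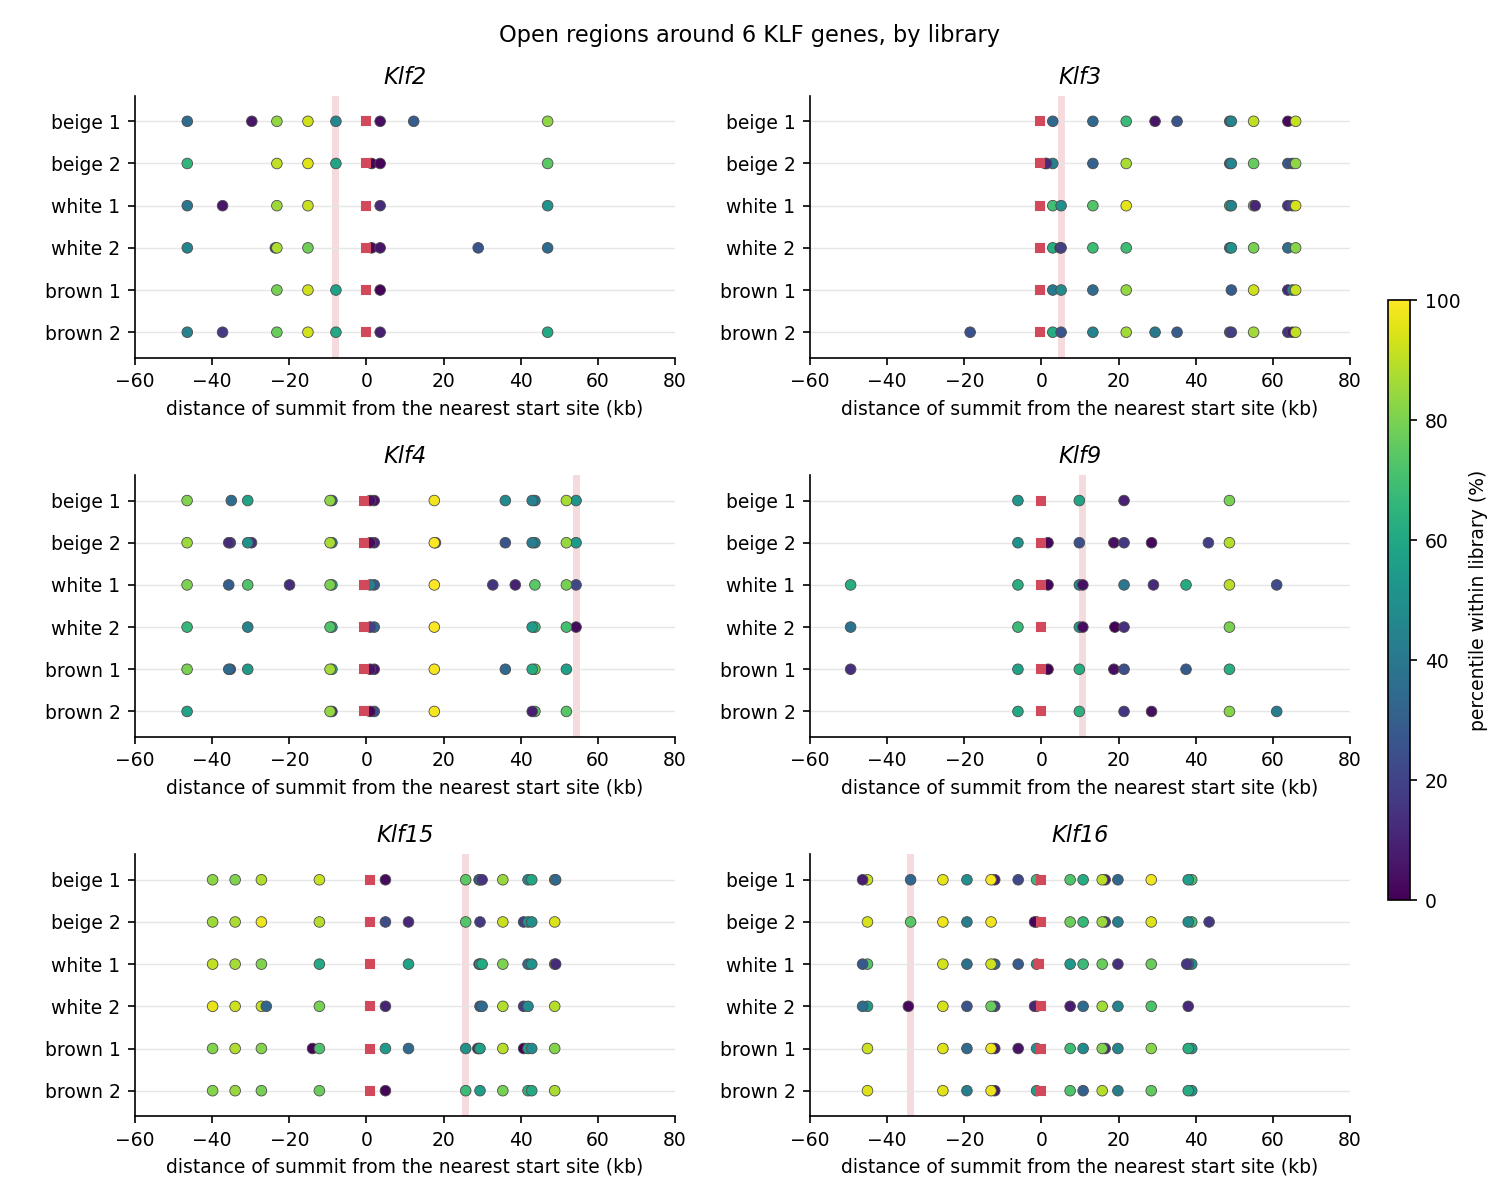
Open regions around Klf2, Klf3, Klf4, Klf9, Klf15 and Klf16 in each of the 6 libraries (rows), at the distance in kb of the strongest summit of the region from the nearest start site (x axis, upstream negative). Circles are further regions coloured by percentile, red squares the strongest promoter summit, and shaded bands the regions open in both libraries of 1 or 2 conditions and none of the others. The band at Klf15 holds circles in beige and brown alone, and the Klf4 region 17.6 kb downstream is at 98.3 or above in every library.

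Among the 176 regions open in all 6 libraries, percentiles were compared as for the promoters. Beige lay above white in 17 regions (9.66%, against 9.92% overall) and below it in 19 (10.8%, against 7.43%). Brown lay above beige in 16 (9.09%, against 8.38%) and below it in 19 (10.8%, against 11.1%), and above white in 14 (7.95%, against 7.62%) and below it in 17 (9.66%, against 7.62%). Around Klf16, 3 of 11 regions were separated with beige above white and 3 with brown above white, and 0 with white above either. The largest of these differences was at the promoter of Csnk1g2, 45.1 kb upstream of Klf16, for beige against white and at the promoter of Atp8b3, 38.1 kb downstream, for brown against white. The Csnk1g2 site had 91.6 and 93.9 in beige, 73.0 and 54.8 in white, and 91.9 and 94.7 in brown. Of all 21 further regions of Klf16, 10 were at the promoter of another protein-coding gene. Around Klf4 the direction between beige and white was the opposite, with 3 of 8 regions separated and beige below white in all 3. The Klf4 region 43.7 kb downstream had 39.0 and 42.9 in beige, 74.2 and 68.7 in white, and 78.8 and 74.5 in brown, so both beige libraries lay below the 4 others. In an intron of Klf3, 13.3 kb downstream of a start site, both white libraries (72.5 and 68.6) lay above beige (33.7 and 30.5) and brown (35.1 and 44.3). Separated regions were found around other genes too. Around Sp2, 4 of 13 had beige above white and 1 had beige below it.

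Genes that act with the family were open throughout. The list held 26 partner genes: the EGR corepressors Nab1 and Nab2, serum response factor and its partners, the cAMP response factors, coactivators and corepressors, the receptors of the hormones in the media and the C/EBP factors. All 26 promoters had a peak in all 6 libraries, against 62.4% of all genes. Beige was separated above white at Mrtfb and Rxra (2 of 26, against 10.3%). It was separated below white at Elk3, Creb1 and Pparg (3 of 26, against 7.16%). Brown was above beige at Creb1, Ctbp2, Hdac2, Cebpa and Cebpd (5 of 26, against 12.3%). It was below beige at Mrtfb (1 of 26, against 6.01%). Brown was above white at Creb1 and Thrb (2 of 26, against 10.5%) and below it at Elk3 (1 of 26, against 4.99%). The shares for these calls are of all genes with a promoter peak in all 6 libraries. Rxra, the partner of PPARγ and thyroid hormone receptors, ranked low, at 34.5 and 29.5 in beige, 17.5 and 8.03 in white, and 27.7 and 7.87 in brown. Pparg, the target of rosiglitazone, had 76.8 and 71.5 in beige, 83.7 and 82.4 in white, and 75.5 and 82.6 in brown. For Pparg, both white libraries lay above both beige libraries and overlapped brown. Cebpd, a glucocorticoid-induced factor of early adipogenesis, had 77.2 and 81.5 in beige, 84.0 and 76.1 in white, and 90.3 and 91.8 in brown, the highest of the 6.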

How the data were processed

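Accessible chromatin was measured by ATAC-seq in 2 beige, 2 white and 2 brown libraries. The study calls those of beige and white biological replicates, and those of brown are numbered as repeats in the labels. The authors trimmed reads with Trimmomatic, aligned them to mm10 with BWA and called peaks per library with MACS2 at a q value of 0.05. The deposited fold enrichment is the authors' ratio of pileup over local background at each summit. Each summit also carries the −log10 q value that the authors deposited. Here, summits sharing an interval were counted once, at the highest −log10 q, except that promoter values are those of the strongest summit within 1 kb of a start site (GENCODE M21 basic set). A percentile is the share of intervals with a fold no larger, so fold values were not compared across libraries. Further regions were intervals merged over the 6 lists at an overlap of 1 bp, with the strongest summit within 50 kb of the gene. In a region open in a library, the values are those of its strongest summit there. Of the 13 consensus sequences, each was searched on both strands within 100 bp of a summit, and sequence was read from RefSeq's copy of the mouse genome (GRCm38, mm10). Python 3.11.15, numpy 2.4.6, pandas 2.3.3, pysam 0.24.0, samtools 1.23.1 and matplotlib 3.10.9 were used, and the classification was tested on simulated data.

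All 31 genes are accounted for. Values in every library are given for genes with a promoter peak in some libraries, separated genes, those with the highest and lowest mean percentile, and Klf4. Regions open in 1 or 2 conditions are given, at most 3 per gene, as are partner genes that were separated; values of other genes and regions were added after they had been seen. The genes and lists were chosen with earlier results of these data known. Alternatives were stricter q values, lists of equal length, other distances and start sites, other ranks, other merging and leaving out each library.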

Additional observations from a re-analysis of the deposited data

How the results depend on the processing

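Peak lists without reads limit every comparison: absence from a list means only that the authors' threshold was not passed, and with 2 libraries per condition the values are described and no test was made between conditions. The number of genes with a promoter peak in all 6 libraries was 25 or 26 without any 1 library and changed by less than 1.5 times under every alternative run. The number of genes without a promoter peak in any library was 2 with promoters of 0.5 kb and 1 under the other alternatives. No paired analysis was possible because the values reported here come from no test, and the replicate numbers of the labels name no shared animal or day.

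The number of separated promoters depends on the rule. For counts of separated genes and of regions, shares over all genes and regions were computed for the main settings alone. Those counts in this and the next paragraph therefore have no background and describe no trait of the family. Where only no overlap between conditions was asked for, 7, 19 and 8 genes were separated in beige versus white, brown versus beige and brown versus white. Without any 1 library, where the lone library of a condition adds no replicate difference, the counts ran from 4 to 11, from 7 to 18 and from 4 to 18, the last being highest without white replicate 1. For single genes, 1 difference changed its sign (Sp4, beige minus white, 0.521 when ranked by −log10 q) and in 19 cases the direction was kept and the separation lost. Of the regions open in all 6 libraries, 91, 92 and 90 were separated in the same order when only no overlap was asked for, and 37 to 96, 36 to 87 and 32 to 86 without any 1 library, an analysis added after the data had been seen.

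The number of further regions was 266 with a window of 20 kb and 787 with 100 kb, of which 105 and 301 were open in all 6 libraries. With 100 kb, 12 were open in beige alone, 9 in white, 5 in brown, 10 in beige and brown and 3 in beige and white, and with 20 kb 0 were open in beige and white. At a q value of 0.00001, 3 were open in beige and brown, 2 in beige and white and 2 in white. At 0.01 and with lists of equal length, 0 were open in beige and white. With summits within 250 bp merged, 3 were open in white and brown. Without any 1 library, where a class then needs fewer peaks, 8 to 36 were open in beige, 5 to 41 in white, 3 to 25 in brown, 7 to 20 in beige and brown, 2 to 11 in beige and white and 1 to 5 in white and brown. Shares of windows with a sequence grew with the window. The GC box was in 40% of promoter windows with 50 bp to each side, against 42.4% of all promoter windows. With 250 bp it was in 86.7%, against 72.8%.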
